A study of Homo sapiens with 6 samples.

Results

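The collagens are described here as a gene family, taken as every protein-coding gene whose symbol is COL, a type number, the letter A and a chain number. This rule picked 44 of the 58735 genes in the count table, and each gene encodes 1 chain of a collagen. They comprise 11 fibrillar collagens, 8 basement membrane collagens (the type IV chains with COL15A1 and COL18A1) and 25 other collagens. The source of the RNA was H2452, an established human pleural mesothelioma line, grown in RPMI-1640 with fetal bovine serum. The 3 sgCtrl libraries came from cells given Cas9 with a scrambled sgRNA, and the 3 sgNF2-1 libraries from cells given Cas9 with an sgRNA against NF2. Both populations were made with lentivirus and sorted for mCherry, and 1 NF2 sgRNA is represented. The study's methods call its replicates biological in general terms, but neither they nor the labels say whether these libraries came from separate cultures, so p-values measure the spread between these libraries, which may be technical.

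Collagens are triple helices of chains, assembled in the endoplasmic reticulum and secreted. Fibrillar collagens form the tension-bearing fibrils of connective tissue, type IV collagen forms the sheet-like network of basement membranes, and the other collagens decorate fibrils, build beaded filaments, anchor epithelia or span the plasma membrane. In the pleura, mesothelial cells rest on a basement membrane above a collagen-rich submesothelial layer. NF2 encodes Merlin, an upstream component of the Hippo pathway, which restrains YAP and TAZ, coactivators that bind DNA through TEAD factors.

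Promoter windows of 300 bases, from 250 bases before to 50 bases after a RefSeq start, were matched for 32 of the 44 collagen genes, with 44 windows in all. No window was matched for COL1A1, COL1A2, COL2A1, COL3A1, COL5A2, COL6A1, COL6A5, COL8A1, COL9A3, COL14A1, COL20A1 and COL22A1. Exact matches on both strands were sought to GGAATG (the core of the TEAD site), CCAAT (the CCAAT box), GGGCGG (the GC box) and TATAAA (the TATA box), none of which contains another. GGAATG was in 3 of the 44 collagen windows (6.82%), those of COL10A1, COL11A2 and COL12A1, against 14.03% of all 35116 windows. CCAAT was in 14 (31.8%, against 34.6%), GGGCGG in 24 (54.5%, against 45.0%) and TATAAA in 8 (18.2%, against 11.5%).

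The sequences below are from RefSeq (GRCh38.p14), 5′ to 3′, in lower case with motif matches on either strand in capitals. The first 2 are shown because they lie between type IV genes that are transcribed away from each other, of which COL4A6 and COL4A5 were called lower and COL4A1 and COL4A2 were not called. The COL4A6 and COL4A5 stretch (chrX:108439588-108439708, plus strand, 121 bases) is the part held by both genes' windows, whose starts are 379 bases apart, and it holds 2 CCAAT matches. The COL4A1 and COL4A2 stretch (chr13:110307158-110307283, plus strand) covers the 126 bases between the RefSeq starts, with 1 CCAAT and 1 GC box match. The others are the 250 bases before the start of 3 genes that were lower in sgNF2-1: COL5A1 (chr9:134641553-134641802, plus strand) with 2 GC box matches, COL7A1 (chr3:48595330-48595579, minus strand) with 3 GC box matches and 1 TATA box match, and COL12A1 (chr6:75206054-75206303, minus strand) with 1 GGAATG and 1 GC box match. A match is a run of letters and was not tested as a binding site.
COL4A6 and COL4A5: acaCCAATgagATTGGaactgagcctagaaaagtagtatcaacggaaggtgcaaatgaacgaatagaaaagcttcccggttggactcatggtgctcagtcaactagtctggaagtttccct
COL4A1 and COL4A2: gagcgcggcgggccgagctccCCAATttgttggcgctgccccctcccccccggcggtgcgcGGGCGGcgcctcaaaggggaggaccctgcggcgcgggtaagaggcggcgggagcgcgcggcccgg
COL5A1: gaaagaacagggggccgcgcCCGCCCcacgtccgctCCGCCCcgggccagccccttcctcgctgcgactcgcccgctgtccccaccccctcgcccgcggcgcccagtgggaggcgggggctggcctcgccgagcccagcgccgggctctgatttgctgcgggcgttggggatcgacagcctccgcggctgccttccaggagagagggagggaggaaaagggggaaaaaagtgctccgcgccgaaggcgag
COL7A1: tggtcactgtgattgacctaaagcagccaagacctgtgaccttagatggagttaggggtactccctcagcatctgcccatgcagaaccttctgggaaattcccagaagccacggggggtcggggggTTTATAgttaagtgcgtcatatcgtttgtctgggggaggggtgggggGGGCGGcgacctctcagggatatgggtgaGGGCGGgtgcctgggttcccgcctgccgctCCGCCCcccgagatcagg
COL12A1: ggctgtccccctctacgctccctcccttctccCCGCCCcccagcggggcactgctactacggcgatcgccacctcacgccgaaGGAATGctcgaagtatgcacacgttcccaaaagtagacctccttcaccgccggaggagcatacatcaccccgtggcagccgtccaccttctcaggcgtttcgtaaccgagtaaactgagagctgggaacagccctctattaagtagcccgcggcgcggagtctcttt

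Total counts ranged from 14782423 to 17416463 per library, and the collagens took 0.321% to 0.462% of them. NF2 had 1162, 1197 and 1025 counts in sgCtrl and 692, 802 and 590 in sgNF2-1, a log2 fold change of -0.69 (edgeR, adjusted p = 7.9e-06), so the targeted transcript was lower and still present. The study checked the knockout as protein, by immunoblot, which these counts do not measure. Of 12 mesothelial markers 9 had enough counts to test. In sgNF2-1 KRT7 (log2 fold change 1.203), KRT18 (0.28) and MSLN (0.66) were higher, against 17.7% of all tested genes, KRT19 (-0.94), PDPN (-1.28) and WT1 (-1.04) were lower, against 16.6%, and KRT8, CALB2 and UPK3B were not called. ITLN1 was at 0, KRT5 had at most 3 counts and LRRN4 at most 5, and the summed marker level was 3480 to 3925 CPM (counts scaled to library size) in sgCtrl and 3372 to 4132 CPM in sgNF2-1. Of the 9 fibroblast and stroma markers, DCN, LUM and DPT were at 0 in every library, and with PDGFRA and FAP 5 genes had at most 3 counts. Their sum was 79.9 to 90.1 CPM in sgCtrl and 52.7 to 53.7 CPM in sgNF2-1, most of it from PDGFRB (means 71.9 and 44.3 CPM). Of the 3 tested stroma markers, PDGFRB (log2 fold change -0.70) and THY1 (-0.52) were lower, against 16.6% of all tested genes. ACTA2 was not called (0.014, edgeR adjusted p = 0.985), and PI16 had at most 5 counts. Of the leukocyte markers, PTPRC was at 0, CD3E had at most 2 counts and CD68 had 5, 4 and 4 counts in sgCtrl and 1, 1 and 1 in sgNF2-1. VWF and KDR of endothelium had at most 3 counts. CD14, the tested leukocyte marker (-1.06), and PECAM1 (-2.28) were lower in sgNF2-1, against 16.6% of all tested genes. CDH5, the other tested endothelial marker, was not called (0.37, edgeR adjusted p = 0.53). The part of these markers in the collagen results was not tested, and in bulk RNA fewer cells with a transcript and less transcript per cell cannot be told apart.

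Of the 44 collagen genes, 23 had enough counts to be tested, and 10 of these were lower in sgNF2-1 while 2 were higher, where 34.3% of all tested genes were called in either direction. A gene was called when its adjusted p was under 0.05 in edgeR's quasi-likelihood test with Benjamini-Hochberg adjustment over all 14179 tested genes. Lower collagens made up 43.5% of the tested ones, against 16.6% of all tested genes, and higher collagens 8.7%, against 17.7%. A fall of at least 2-fold was found for 7 collagens (30.4%), against 3.07% of all tested genes, and a rise of at least 2-fold for 0, against 2.26%. With the limits in the study's methods, taken as an unadjusted p under 0.05 with a log2 change over 0.5 in size, 8 collagens were lower and 2 higher, against 10.8% and 9.22% of all tested genes. The median log2 fold change was -0.31 over the tested collagens, -1.27 over the fibrillar, -0.19 over the basement membrane and -0.18 over the other collagens, and -0.0025 over all tested genes. The sgNF2-1 libraries lay wholly below the sgCtrl libraries for 10 collagens and wholly above for 3, where 22.2% and 23.2% of all tested genes did so. These 10 are not the 10 called lower. They include COL5A2 (log2 fold change -0.09, edgeR adjusted p = 0.89) and leave out COL18A1, which was called with overlapping groups. The 3 include COL4A3 (edgeR adjusted p = 0.23), with 9, 10 and 7 counts in sgCtrl and 17, 15 and 11 in sgNF2-1. It passed the filter through the sgNF2-1 libraries, where it is higher, so its place among the 3 carries no weight. The tested collagens exclude genes with few reads everywhere, so these shares describe the transcribed members. The members were chosen with earlier results of these data known, so the shares are not an independent test.

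**Figure D1:**
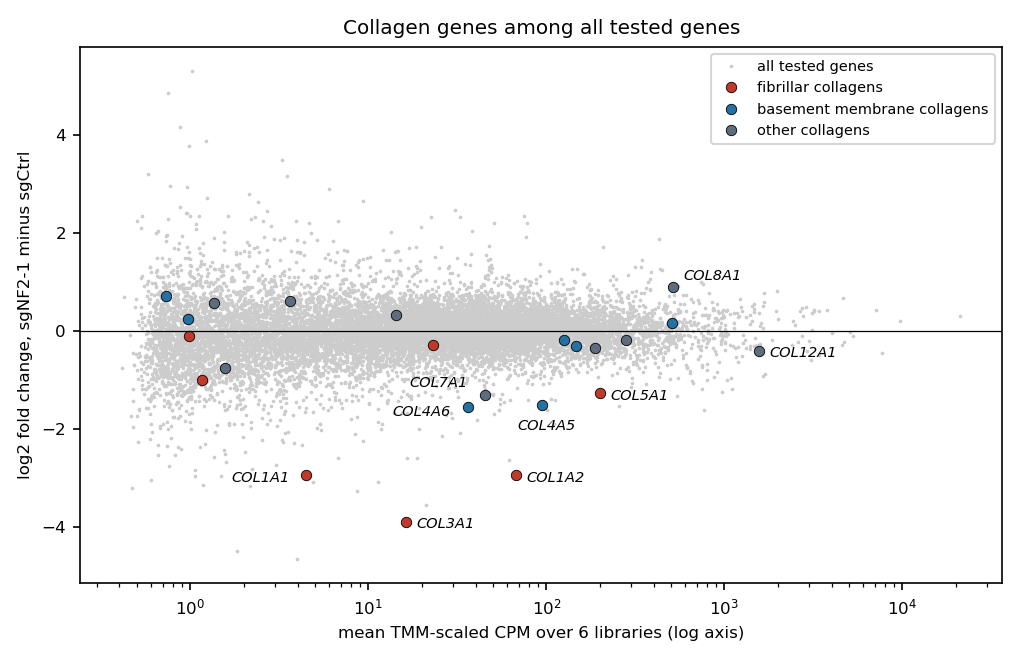
Log2 fold change (sgNF2-1 minus sgCtrl) of every tested gene against its mean level over the 6 libraries in TMM-scaled CPM on a log axis, with the 23 tested collagens coloured by class. COL3A1 (-3.90), COL1A2 (-2.95) and COL1A1 (-2.95) lie near the bottom edge of the cloud, and COL8A1 (0.91) lies above zero among the abundant collagens.

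Of the control libraries, sgCtrl replicate 3 stood lowest for 18 of the 23 tested collagens in TMM-scaled CPM. How often it stood lowest among all tested genes was not counted, so whether this is particular to the collagens was not tested. Without this library, 15 collagens were called lower and 1 higher, while 15.6% of all genes tested in that setting were lower and 17.3% higher. The genes gained were COL27A1, COL11A2, COL5A3, COL4A1 and COL6A2, and the fibrillar count rose from 4 to 7. The other counts of lower collagens, leaving out each remaining library in turn, lay between 9 and 11.

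**Figure D2:**
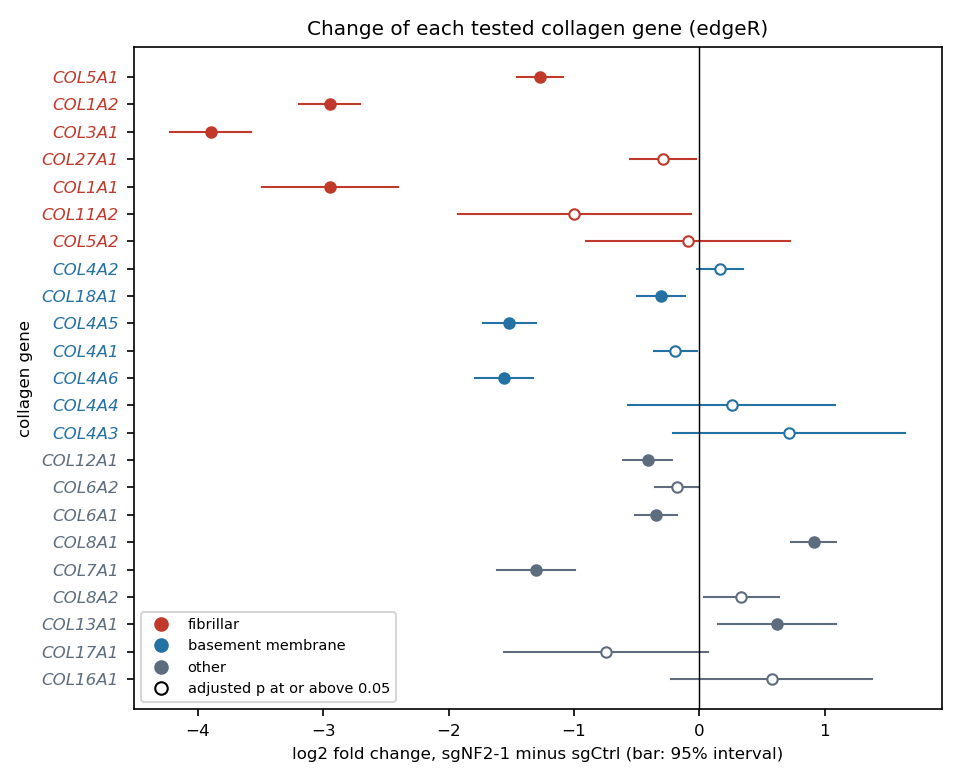
Log2 fold change of each tested collagen gene (sgNF2-1 minus sgCtrl, edgeR) with its 95% interval, grouped by class and ordered by sgCtrl FPKM within a class. Filled points are the 12 genes with an adjusted p under 0.05, and the intervals of COL3A1, COL1A2, COL1A1, COL5A1, COL4A5, COL4A6 and COL7A1 lie furthest below zero.

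Among the fibrillar collagens, COL3A1, COL1A2, COL1A1 and COL5A1 fell in sgNF2-1, and 3 more tested genes, COL27A1, COL11A2 and COL5A2, were not called, so 57.1% were lower against 16.6% of all tested genes. COL3A1 (ENSG00000168542, chr2:188974320-189012746), which encodes the chain of type III collagen found with type I in elastic tissues, had 489, 498 and 464 counts in sgCtrl and 41, 26 and 30 in sgNF2-1. The sgNF2-1 libraries were all far below the controls, and the groups did not overlap. It was 14.9-fold lower (log2 fold change -3.90, standard error 0.16, adjusted p = 2.2e-15), the third lowest fold change of all tested genes.

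Type I collagen, the main fibril collagen of skin, tendon and bone, is built from the COL1A1 and COL1A2 chains. COL1A2 (ENSG00000164692, chr7:94394561-94431232) had 2143, 1991 and 1530 counts in sgCtrl and 264, 275 and 193 in sgNF2-1. Every sgNF2-1 library held far fewer counts than the lowest control, sgCtrl replicate 3. The fall was 7.71-fold (log2 fold change -2.95, standard error 0.12, adjusted p = 2.2e-15). COL1A1 (ENSG00000108821, chr17:50183289-50201632) had 152, 115 and 108 counts in sgCtrl and 13, 15 and 20 in sgNF2-1, again without overlap. Its fall was 7.70-fold (log2 fold change -2.95, standard error 0.26, adjusted p = 4.0e-09), on fewer counts than COL1A2.

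COL5A1 (ENSG00000130635, chr9:134641774-134844843) encodes the main chain of type V collagen, which sets fibril diameter and nucleates type I fibrils. It had 4634, 5099 and 3684 counts in sgCtrl and 2109, 1753 and 1681 in sgNF2-1. The groups did not overlap, and the gene was 2.41-fold lower (log2 fold change -1.27, standard error 0.09, adjusted p = 7.1e-11). COL5A2, which encodes the partner chain of type V collagen, had 16, 16 and 16 counts against 17, 15 and 13, with a log2 fold change of -0.09 and a 95% interval from -0.90 to 0.72. At this depth an unchanged level and a fall of the size seen for COL27A1 could not be separated.

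COL27A1, a fibrillar collagen of cartilage with a shorter helix, had 430, 461 and 310 counts in sgCtrl and 401, 316 and 266 in sgNF2-1, which overlap (log2 fold change -0.29, adjusted p = 0.082). COL11A2, a chain of the cartilage type XI collagen, had 35, 30 and 9 counts against 19, 9 and 9 (log2 fold change -0.995, adjusted p = 0.090). In both genes sgCtrl replicate 3 was the lowest control, and without that library they were called lower, with adjusted p-values of 0.011 and 0.015. COL5A3, a further type V chain with 19, 18 and 7 counts against 4, 9 and 2, did not pass the filter on all 6 libraries. COL2A1 and COL11A1, which build cartilage fibrils, had at most 2 and 3 counts in any library, and COL24A1 had 0.

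Of the 7 tested basement membrane genes, COL4A5, COL4A6 and COL18A1 fell and 4 were not called, so 42.9% were lower against 16.6% of all tested genes. COL4A5 (ENSG00000188153, chrX:108439844-108697545), a type IV chain of kidney, skin and smooth muscle basement membranes, had 2447, 2365 and 1838 counts in sgCtrl and 938, 794 and 599 in sgNF2-1. The groups were well apart, with every sgNF2-1 library under every control. The gene was 2.86-fold lower (log2 fold change -1.52, standard error 0.10, adjusted p = 3.2e-11).

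COL4A6 (ENSG00000197565, chrX:108155607-108439497) encodes the chain that pairs with COL4A5 in a type IV trimer of smooth muscle and epithelial basement membranes. It had 874, 985 and 706 counts in sgCtrl and 329, 300 and 241 in sgNF2-1, again with no overlap. The fall was 2.94-fold (log2 fold change -1.56, standard error 0.11, adjusted p = 1.1e-10). The annotated COL4A5 and COL4A6 genes lie head to head with 346 bases between them, at the stretch with 2 CCAAT matches printed above, and their fold changes differed by less than their standard errors.

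COL4A1 and COL4A2, the chains of the type IV collagen found in nearly all basement membranes, are also annotated head to head and overlap by 1422 bases, with no shared exon. COL4A2 (ENSG00000134871, chr13:110305812-110513209) had 8027, 8337 and 6348 counts in sgCtrl and 8870, 8689 and 7748 in sgNF2-1. Scaled for library size the groups overlapped, and the log2 fold change of 0.17 (95% interval -0.02 to 0.35, adjusted p = 0.15) was not called. COL4A1 (ENSG00000187498) had 2229, 2296 and 1811 counts against 2036, 1859 and 1638, with a log2 fold change of -0.19 (95% interval -0.36 to -0.02, adjusted p = 0.085). Without sgCtrl replicate 3 it was called lower (-0.26, adjusted p = 0.017). COL4A3 and COL4A4, chains of the glomerular basement membrane, lie head to head 111 bases apart and had 7 to 17 counts per library. Their log2 fold changes were 0.72 and 0.26 (adjusted p = 0.23 and 0.66), and COL4A3 shares exon sequence with the opposite-strand gene AC097662.1, which had 5 to 24 counts. Whether the COL4A5 and COL4A6 changes differ from those of the COL4A1 and COL4A2 pair was not tested.

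COL18A1 (ENSG00000182871, chr21:45405137-45513720) encodes a proteoglycan of basement membranes and the source of endostatin. It had 2855, 2740 and 2104 counts in sgCtrl and 2169, 2017 and 1994 in sgNF2-1. The scaled values of the groups overlapped at sgCtrl replicate 3. It was lower by the test (log2 fold change -0.31, standard error 0.09, adjusted p = 0.012), and the call was lost without sgCtrl replicate 1 (adjusted p = 0.10) or sgNF2-1 replicate 1 (0.082) and in the 3 limma settings on FPKM (0.064 to 0.17). The gene shares exon sequence with SLC19A1 on the opposite strand, a folate carrier that had 713, 729 and 643 counts in sgCtrl and 1287, 1210 and 1136 in sgNF2-1, and reads of the shared part cannot be assigned without strand. COL15A1, the related collagen of vessel and muscle basement membranes, had 1 count in 1 library and 0 in the others.

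Among the 9 tested genes of the other collagens, COL7A1, COL12A1 and COL6A1 fell, COL8A1 and COL13A1 rose and 4 were not called. The 33.3% lower and 22.2% higher stand beside 16.6% and 17.7% of all tested genes, so the share that rose was near the background. COL8A1 (ENSG00000144810, chr3:99638475-99799226) encodes a short-chain collagen that forms hexagonal networks under endothelium and in the cornea. It had 5549, 6290 and 5124 counts in sgCtrl and 12018, 11270 and 8610 in sgNF2-1. All sgNF2-1 libraries were above all controls. The rise was 1.88-fold (log2 fold change 0.91, standard error 0.09, adjusted p = 1.4e-08). Its partner gene COL8A2 had 156 to 222 counts in sgCtrl and 227 to 282 in sgNF2-1, with overlapping scaled values and a log2 fold change of 0.34 (adjusted p = 0.076), which became 0.44 (adjusted p = 0.042) without sgNF2-1 replicate 1.

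COL7A1 (ENSG00000114270, chr3:48564073-48595267) encodes the collagen of the anchoring fibrils that tie basement membranes to the stroma beneath. It had 1230, 1146 and 670 counts in sgCtrl and 492, 320 and 413 in sgNF2-1. The control libraries were spread widely, with sgCtrl replicate 3 the lowest, but the groups did not overlap. The gene was 2.47-fold lower (log2 fold change -1.31, standard error 0.15, adjusted p = 2.5e-07).

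COL12A1 (ENSG00000111799, chr6:75084326-75206051), a collagen that coats fibrils and links them to other matrix proteins, was the most abundant collagen transcript per length in both groups. It had 26172, 32988 and 25635 counts in sgCtrl and 24171, 22232 and 17353 in sgNF2-1. The groups did not overlap, with sgCtrl replicate 2 the highest. It was called lower (log2 fold change -0.41, standard error 0.09, adjusted p = 0.0014). Among the called genes with a promoter window, COL12A1 is also the one whose window holds the GGAATG match, a description that carries no test. The called genes COL1A1, COL1A2, COL3A1, COL6A1 and COL8A1 had no window to search.

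Type VI collagen forms beaded filaments around cells, from the COL6A1 and COL6A2 chains with a further chain such as COL6A3. COL6A1 (ENSG00000142156, chr21:45981737-46005050) had 3457, 3522 and 2967 counts in sgCtrl and 2780, 2696 and 2304 in sgNF2-1, without overlap after scaling. It fell by 0.35 on the log2 scale (standard error 0.08, adjusted p = 0.0016). COL6A2 (ENSG00000142173, chr21:46098097-46132849) had 4796, 5067 and 4222 counts against 4313, 3966 and 4050, with overlapping scaled values and a log2 fold change of -0.18 (adjusted p = 0.095). Without sgCtrl replicate 3 or sgNF2-1 replicate 3 it was called lower, with adjusted p-values of 0.047 and 0.029, as it was in edgeR with library totals in place of TMM (-0.21, adjusted p = 0.048). COL6A3 had 2, 1 and 0 counts in sgCtrl and 1, 1 and 2 in sgNF2-1, COL6A6 had at most 3 and COL6A5 had 0, so each was too low to test.

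The transmembrane collagen COL13A1, found at cell-matrix junctions, had 51, 46 and 39 counts in sgCtrl and 70, 71 and 67 in sgNF2-1. The groups did not overlap, and the gene was called higher (log2 fold change 0.62, standard error 0.23, adjusted p = 0.039). This call was lost with DESeq2 (adjusted p = 0.057), with library totals in edgeR (0.053) and in the 3 limma settings on FPKM (0.16 to 0.21). It was also lost without sgCtrl replicate 2 (0.099), sgCtrl replicate 3 (0.090), sgNF2-1 replicate 2 (0.10) or sgNF2-1 replicate 3 (0.092). COL17A1, the hemidesmosome collagen, had 37, 33 and 24 counts against 35, 15 and 7, in which sgNF2-1 replicate 1 lay within the control range. Its log2 fold change was -0.74 (adjusted p = 0.15), and -1.41 (adjusted p = 0.025) without that library. COL16A1, a fibril-associated collagen, had 20, 13 and 19 counts against 43, 16 and 20 (log2 fold change 0.58, adjusted p = 0.27), and it shares exon sequence with AC114488.2 on the opposite strand, which had 1 to 7 counts.

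Of the 21 untested collagens, 20 had at most 4 counts in every library, and 5 of these, COL6A5, COL9A1, COL19A1, COL24A1 and COL26A1, had 0 throughout. A count of 0 allows up to 3 counts, or 0.172 to 0.203 CPM depending on the library, and covers counting error only. Cartilage and fibril-associated genes had maxima of 2 for COL10A1, 3 for COL9A2, 4 for COL9A3, 2 for COL14A1, 4 for COL20A1, 2 for COL21A1 and 2 for COL22A1. The transmembrane genes COL23A1 and COL25A1 reached 4 counts, and COL28A1 reached 3. These genes were near absent from both groups at this depth, and no fold change is given for them.

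**Figure D3:**
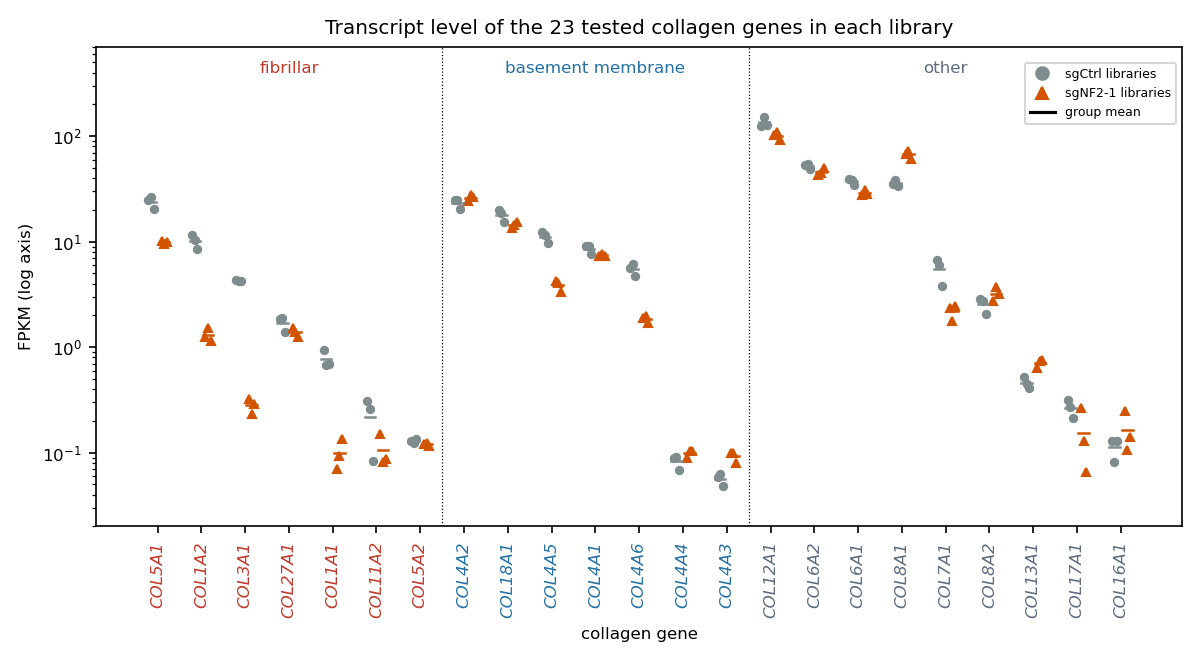
FPKM (log axis) of the 23 tested collagen genes in each of the 6 libraries, with circles for sgCtrl, triangles for sgNF2-1 and short lines for group means. The gap between the groups is widest for COL3A1, COL1A2 and COL1A1, and COL8A1 is the abundant gene with triangles above circles.

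Levels were compared between genes as FPKM, which divides counts by transcript length and depth. In sgCtrl the order was led by COL12A1 at 135.7 ± 14.9 FPKM (SD, n = 3), COL6A2 at 52.3 ± 2.97, COL6A1 at 37.2 ± 2.28 and COL8A1 at 36.0 ± 2.40. COL6A1 and COL8A1 did not differ beyond their spread. COL5A1 (23.9 ± 3.03) and COL4A2 (23.5 ± 2.59) followed and did not differ either, ahead of COL18A1 (18.0 ± 2.42), COL4A5 (11.2 ± 1.40) and COL1A2 (10.1 ± 1.51). In sgNF2-1 COL12A1 stood at 101.1 ± 8.78 FPKM and COL8A1 came next at 67.1 ± 6.48, above COL6A2 (45.7 ± 3.47) and COL6A1 (28.97 ± 1.61). COL4A2 (26.1 ± 1.51) and COL18A1 (14.5 ± 0.916) followed, and COL5A1 (9.83 ± 0.249), which had stood beside COL4A2 in sgCtrl, came after both, ahead of COL4A5 (3.87 ± 0.481) and COL1A2 (1.301 ± 0.186). COL3A1 went from 4.26 ± 0.0465 to 0.281 ± 0.0446 FPKM, COL1A1 from 0.765 ± 0.144 to 0.0993 ± 0.0322, COL7A1 from 5.48 ± 1.52 to 2.20 ± 0.377 and COL4A6 from 5.51 ± 0.709 to 1.86 ± 0.135. COL3A1 and COL1A1, with 2 of the 3 largest falls on the log scale, were thus minor collagen transcripts of the control cells.

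Summed over all 44 genes, the collagen level was 4183, 4527 and 3810 TMM-scaled CPM in the sgCtrl libraries and 3490, 3693 and 3337 in the sgNF2-1 libraries. All sgNF2-1 sums were below all control sums. The mean fell from 4174 ± 359 (SD, n = 3) to 3507 ± 178, which is 84.0% of the control (exact permutation p = 0.10, two-sided, and 0.13 adjusted over the 4 pooled values tested), and a comparison of 3 with 3 libraries cannot give a lower p than 0.10. Without COL12A1 the sums overlapped, and the mean was 90.6% of the control (exact permutation p = 0.20).

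By class, the fibrillar share of the collagen transcripts was lower and the share of the other collagens higher in every sgNF2-1 library. Fibrillar chains took 12.0%, 11.1% and 10.6% of the summed CPM in sgCtrl and 4.67%, 4.25% and 4.66% in sgNF2-1, with no overlap (exact permutation p = 0.10, adjusted p = 0.13). Other chains took 63.0%, 66.4% and 67.2% against 71.9%, 71.7% and 69.6%, also with no overlap (exact permutation p = 0.10, adjusted p = 0.13). Basement membrane chains took 25.0%, 22.5% and 22.2% against 23.4%, 24.0% and 25.8%, which overlap (exact permutation p = 0.40), and the sign of their small difference, 1.17 percentage points, turned with FPKM (-0.62) or without COL12A1 (-1.07). COL8A1 went from 8.58% to 19.2% of the sum as a mean of 3 libraries, COL12A1 went from 42.8% to 38.3%, COL5A1 from 6.75% to 3.35% and COL1A2 from 2.86% to 0.439%. Shares add up to a whole, so the shares of different classes and genes are not independent.

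**Figure D4:**
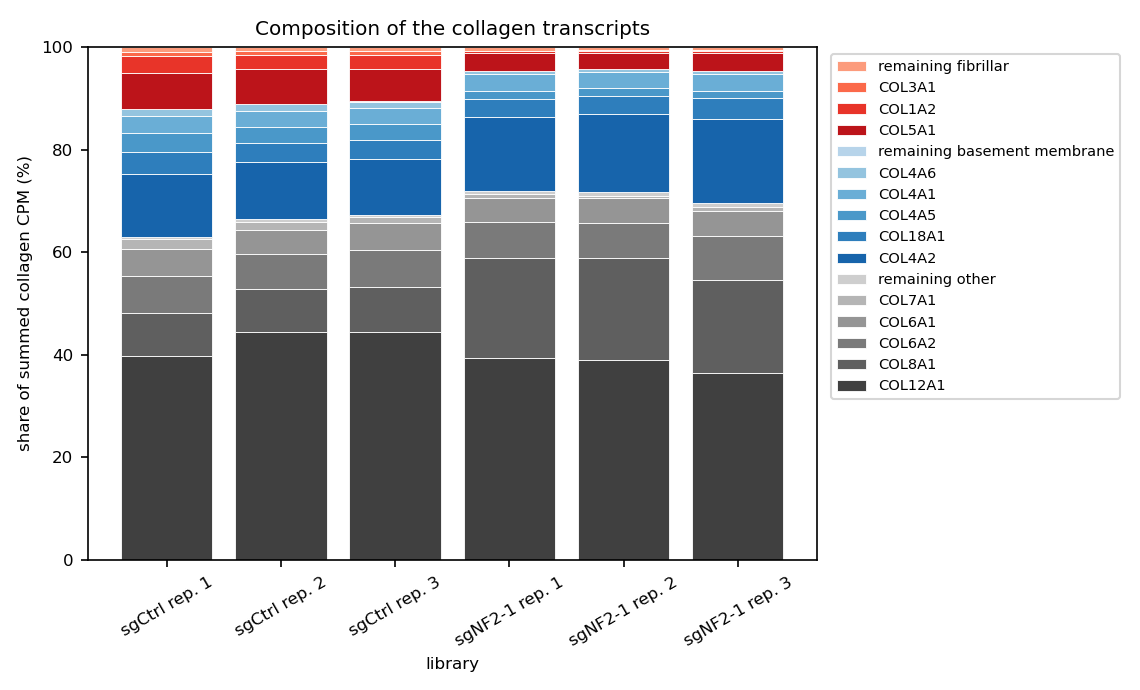
Share (%) of the summed collagen CPM taken by each gene in each library, as stacked bars with fibrillar chains in reds, basement membrane chains in blues and other chains in greys. The red part shrinks from 10.6% to 12.0% in the sgCtrl bars to 4.25% to 4.67% in the sgNF2-1 bars, and the COL8A1 band widens from a mean of 8.58% to 19.2%.

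Chains that share a trimer were compared as the ratio of their FPKM within a library, which does not depend on scaling between libraries. The 5 pairs with at least 10 counts in every library were tested by two-sided exact permutation, with p-values adjusted over them. The ratio of COL4A1 to COL4A2 was 0.364, 0.361 and 0.373 in sgCtrl and 0.300, 0.280 and 0.277 in sgNF2-1, a log2 difference of -0.36 with no overlap (exact permutation p = 0.10, adjusted p = 0.17). The ratio of COL5A1 to COL5A2 was 192.9, 212.3 and 153.4 against 82.6, 77.8 and 86.1 (log2 difference -1.17, exact permutation p = 0.10, adjusted p = 0.17), in which COL5A2 rests on 13 to 17 counts per library. COL6A1 to COL6A2 gave 0.727, 0.701 and 0.708 against 0.650, 0.685 and 0.573 (log2 difference -0.17, exact permutation p = 0.10, adjusted p = 0.17). In these 3 pairs all sgNF2-1 libraries were below all controls, and 0.10 is the smallest p that the design allows.

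The ratios of the other two pairs overlapped between the groups. COL4A5 to COL4A6 was 2.19, 1.88 and 2.04 in sgCtrl and 2.23, 2.07 and 1.94 in sgNF2-1 (log2 difference 0.03, exact permutation p = 0.70, adjusted p = 0.88). COL1A1 to COL1A2 was 0.0806, 0.0656 and 0.0802 against 0.0559, 0.0620 and 0.118, a log2 difference of -0.02 although the mean ratio was higher in sgNF2-1 (exact permutation p = 1.0). The sgNF2-1 libraries of this pair were spread to both sides of the controls, with COL1A1 at 13 to 20 counts. COL6A3 was too low for a ratio to COL6A1.

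Collagen genes that lie head to head or near each other had fold changes of different size in some pairs. COL3A1 and COL5A2 lie tail to tail on chromosome 2 with 19149 bases between them and no gene in that gap, and had log2 fold changes of -3.90 and -0.09. COL6A1 and COL6A2 lie on the same strand of chromosome 21, with 93046 bases and 5 genes between them, and had log2 fold changes of -0.35 and -0.18. COL18A1, 468016 bases from COL6A1 on the same strand, had a log2 fold change of -0.31, close to that of COL6A1, and both were called lower. Of the 3 head-to-head type IV pairs, COL4A5 and COL4A6 (-1.52 and -1.56) were the pair in which both genes were called. The differences between neighbours were not tested other than as the ratios above.

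The proteins that make, export, trim, crosslink and bind collagen were examined as a list of 45 genes, of which 38 had enough counts. In sgNF2-1 29 were lower, against 16.6% of all tested genes, and 0 were higher, against 17.7%. The other 9 were not called, and the median log2 fold change was -0.66. The list was chosen with earlier results of these data known, so these shares are not an independent test. LOXL3, a crosslinking enzyme named after its values were seen, was the gene higher at an unadjusted p under 0.05 (log2 fold change 0.97, edgeR adjusted p = 0.0504), and DESeq2 and limma called 0 higher. By role, 14 of 17 tested hydroxylases, glycosyltransferases and chaperones were lower, 2 of 4 export genes, 4 of 4 propeptide proteases and their enhancers, 4 of 5 crosslinking enzymes and 5 of 8 receptors.

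The largest falls among them were in a crosslinking enzyme and integrins that bind collagen. LOXL4, a lysyl oxidase, had 80, 101 and 79 counts in sgCtrl and 15, 19 and 19 in sgNF2-1 (log2 fold change -2.27, standard error 0.27, adjusted p = 3.4e-07). ITGA11, the integrin chain for fibrillar collagen, had 406, 524 and 525 counts against 136, 120 and 108 (log2 fold change -1.997, standard error 0.13, adjusted p = 3.2e-11). ITGA2, an integrin chain for collagen and laminin, had 1948, 2558 and 2277 counts against 928, 862 and 644 (log2 fold change -1.48, standard error 0.10, adjusted p = 3.0e-11). All sgNF2-1 libraries of these genes were below all controls.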

How the data were processed

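RNA was measured in H2452 cells, in 3 sgCtrl and 3 sgNF2-1 libraries prepared with a kit that, as named, does not mark strand. The deposited tables hold counts of reads on each gene, not normalized, and FPKM values (fragments scaled to transcript length and depth). The submitters' processing notes name hg38, HISAT2, StringTie 1.3.3b and featureCounts 1.5.0-p3, and the study's methods name DESeq2. Whether counting used strand is not given in the sources used here. Gene coordinates are those of the deposited table, and all 44 collagens have the same start and end in GENCODE release 29 (GRCh38).

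From the deposited counts, genes were filtered with edgeR 4.0.16 filterByExpr (minimum count 10, minimum total 15) in R 4.3.3, scaled by TMM and tested by the quasi-likelihood method, and p-values were adjusted by Benjamini-Hochberg over 14179 genes. A standard error is the log2 fold change over the root of its F statistic. Sums, shares and ratios were compared with two-sided exact permutation tests (scipy 1.17.1). Sample titles gave the groups and replicate numbers. Full values are given for collagens called with a log2 fold change of at least 1 in size and for those averaging at least 10 FPKM in either group. For the other pathway genes, the 3 largest called changes are given. Members and lists were chosen with earlier results of these data known. The procedures were tested on simulated counts. Alternatives were DESeq2 1.42.0, its size factors or library totals in edgeR, other filters, a replicate block, leaving out each library, adjustment over protein-coding genes, fold limits as in the study's methods, and limma 3.58.1 on log2(FPKM + 1), or + 0.1, with or without a filter at a mean of 0.5 FPKM. Gly-X-Y repeats of the proteins were not analysed here. Within a group, each pair of libraries varied beyond counting noise (chi-square per degree of freedom 5.18 to 12.8).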

Additional observations from a re-analysis of the deposited data

How the results depend on the processing

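The 10 lower and 2 higher collagens were recomputed under 18 other settings. The higher count was 1 with DESeq2, with library totals and in the 3 limma settings, where COL13A1 was lost, and 1 to 3 when a library was left out, the same as for the other collagens alone. The lower count was 7 to 11 in all settings except without sgCtrl replicate 3, where it was 15, and the fibrillar count was 4 to 7 when a library was left out. With a log2 fold limit of 0.5 the lower other collagens numbered 1, with adjusted or unadjusted p. COL3A1, COL1A2, COL1A1, COL5A1, COL4A5, COL4A6, COL7A1, COL6A1 and COL8A1 were called in every setting that tested them without a fold limit, COL18A1 in 11 of 16 and COL12A1 in 15 of 16, limma without a filter being the exception (adjusted p = 0.065). COL13A1 was the called gene lost most often, in the settings named above and without sgCtrl replicate 2 or 3 or sgNF2-1 replicate 2 or 3. The basement membrane share changed sign with FPKM (-0.618) and without COL12A1 (-1.07). The difference between the groups (sgNF2-1 minus sgCtrl) in the log2 ratio of COL1A1 to COL1A2 was 0.019 from counts plus 0.5 per length and -0.352 to 0.185 when a library was left out, and the difference for COL4A5 to COL4A6 was -0.0231 to 0.0877 when a library was left out. Same-numbered replicates did not pair, with correlations of their deviations of -0.044, 0.091 and 0.071, and the replicate block left 10 collagens lower and 2 higher. Alternatives for the biosynthesis and receptor list were added after the data were seen. Its higher count was 1 with adjustment over protein-coding genes, with at least 10 counts in every library and with the replicate block. That count was 0 to 1 when a library was left out. The lower count for this list, 29 in the main fit, was 23 in limma without a filter and 25 in limma with one. It was 27 with no filter on low counts and 24 to 28 when a library was left out. Genes with under 20 counts per library, such as COL5A2, COL4A3 and COL4A4, had intervals wider than 1 log2 unit, so depth limits what can be said of them. The protein repeat description was not run.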
